A study of Mus musculus with 17 samples.

Results

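The adult neurogenesis genes are 10 genes that mark newborn neurons and their precursors, followed here in the mouse hippocampus at 3, 24 and 29 months of age. They were chosen by name (Eomes, Insm1, Neurod1, Sox4, Sox11, Dcx, Igfbpl1, Draxin, Calb2 and Tac2), and all 10 were found among the 38355 gene identifiers counted in 17 libraries. Every mouse was an untreated wild type C57BL/6J animal, and the RNA came from the whole hippocampus dissected by hand, so that the dentate gyrus was a part of each sample. Mice of 24 months (24M, 6 libraries) were set against 3-month-old mice (3M, 5 libraries) with single-end reads. In a separate experiment with paired-end reads, mice of 29 months (29M, 3 libraries) were set against 3-month-old mice of their own (3 libraries). The study's methods give the age of the oldest group as a range around this value, since these animals were bought aged and kept on in house.

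In the adult dentate gyrus, radial glia-like stem cells of the subgranular zone give rise to dividing intermediate progenitors, these to migrating neuroblasts, and these to immature neurons that mature into granule cells. Each step has its own transcription factors, cytoskeletal proteins and secreted factors, which are switched on and off in sequence. In rodents, the output of this lineage is known to decline from young adulthood onward. In bulk tissue, fewer cells of a type and less RNA per cell cannot be told apart.

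The libraries of the 3M single-end group held 19144461 to 28438296 counts on genes, those at 24M 9213474 to 19756411, the 3M paired-end libraries 10977976 to 15054972 and those at 29M 10991389 to 13563541. 24M replicates 1 and 4 differed by less than the sampling noise, so their mean stands for 1 sample here and 24M has n = 5. A list of 8 hippocampal markers summed to 1256 to 1695 CPM (counts per 1000000 counts of the library) over the single-end samples with 0 genes called, so the markers of the labelled tissue were present. A list of 12 striatum genes summed to 725 CPM in 3M single-end replicate 4 against at most 302 in the other 3M single-end samples. Values without this library are given below for the members other than Eomes and Calb2, and for the other lineage genes called at 24M. All levels below are CPM after TMM normalization (trimmed mean of M values) within each experiment, with SD over samples. A gene was called when its p in edgeR's quasi-likelihood test, adjusted by the Benjamini-Hochberg method, was at most 0.05 and the log2 fold change at least 0.5 in size.

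At 24M, 5 of the 10 genes were called lower than at 3M, namely Igfbpl1, Draxin, Sox4, Sox11 and Dcx, and 0 were called higher. Over all 15683 genes tested, 0.638% were called lower. At 29M, 9 of the 10 genes were tested and 2 were called lower, Igfbpl1 and Eomes, where 0.113% of all 15097 genes tested were called lower. The median log2 fold change over the members tested was -0.61 at 24M and -0.35 at 29M, beside -0.0032 and -0.0021 over all genes. The members were chosen with earlier results of these data known. The counts and medians therefore describe the chosen genes and are no test of them as a set. Every 24M sample lay below every 3M sample for 6 members (the 5 called genes and Insm1), which was so for 3.42% of all genes tested. The same held at 29M for 3 of the members tested (Dcx, Eomes and Igfbpl1) and for Draxin, which was not tested, with 10.5% over all genes tested. The filter on low counts, near 0.517 CPM in the single-end and 0.842 CPM in the paired-end experiment, matters for the rarest members. At 24M, Draxin passed it with 1 aged sample above that level. At 29M, Eomes passed with 0 and Igfbpl1 with 1 aged sample above it, so that these genes were tested because of their 3M samples.

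**Figure D1:**
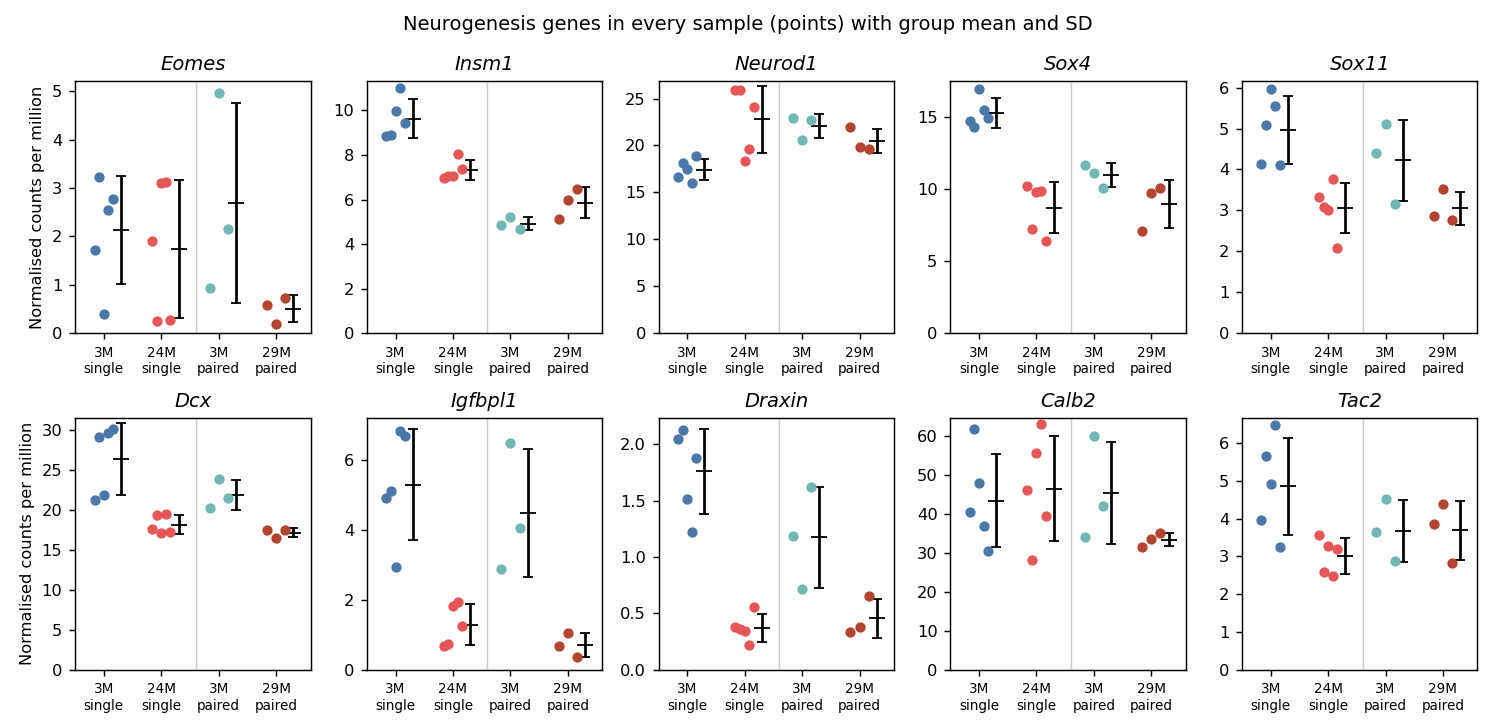
Normalised CPM of each neurogenesis gene (vertical axes, from 0) in every sample, with 3M and 24M single-end samples to the left of the grey line and 3M and 29M paired-end samples to the right; points are samples, and the bar beside them is the group mean with SD (n = 5, 5, 3 and 3). Igfbpl1, Draxin and Dcx show no overlap between aged and 3M samples in either experiment, while Calb2 overlaps in both.

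The DNA just upstream of the start of 4 of the 5 genes called lower at 24M is shown because these genes moved in the same direction. Of the 10 genes, 7 had an entry in RefSeq's promoter windows (GRCm38.p6, 250 bases before each start). Sequences run 5′ to 3′ on the gene's strand, and capitals mark CAGNTG, an E-box form bound by basic helix-loop-helix proteins such as NEUROD1. The stretches are chrX:143933312-143933469 for Dcx, chr4:148130699-148130948 for Draxin, chr12:27342719-27342968 for Sox11 and chr13:28953714-28953949 for Sox4, all on the minus strand.
Dcx: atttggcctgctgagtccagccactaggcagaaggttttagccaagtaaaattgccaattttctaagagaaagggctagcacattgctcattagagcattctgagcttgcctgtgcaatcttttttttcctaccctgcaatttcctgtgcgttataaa
Draxin: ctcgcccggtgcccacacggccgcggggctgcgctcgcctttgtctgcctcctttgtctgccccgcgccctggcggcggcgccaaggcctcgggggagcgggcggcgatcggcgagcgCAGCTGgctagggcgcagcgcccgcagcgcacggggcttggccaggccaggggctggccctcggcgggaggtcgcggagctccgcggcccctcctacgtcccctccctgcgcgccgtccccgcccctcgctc
Sox11: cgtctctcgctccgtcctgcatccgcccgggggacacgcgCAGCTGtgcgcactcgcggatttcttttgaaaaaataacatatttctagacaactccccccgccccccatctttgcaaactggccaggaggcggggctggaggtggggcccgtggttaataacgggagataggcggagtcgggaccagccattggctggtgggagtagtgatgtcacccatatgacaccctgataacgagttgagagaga
Sox4: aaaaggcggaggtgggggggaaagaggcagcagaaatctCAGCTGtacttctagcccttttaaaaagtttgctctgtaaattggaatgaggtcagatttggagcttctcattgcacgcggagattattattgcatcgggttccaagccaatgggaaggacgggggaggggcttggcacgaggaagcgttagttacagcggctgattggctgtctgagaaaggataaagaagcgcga
The motif, searched on both strands, was present in 4 of the 7 genes, at -132 from the RefSeq start in Draxin, -210 in Sox11, -211 in Sox4 and -22 in Tac2. It was present in 44.8% of all 32851 windows of the same length. The SOX core ACAANG, on either strand, was present in 2 of the 7 genes, Draxin and Dcx, and in 36.3% of all windows. Dcx has 2 RefSeq starts, and its matches lie in the window of the second, outside the stretch printed. The G and C content of the Draxin stretch was 79.6%, against 42.4% for that of Dcx. These are matches of letters and no test was made on them.

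The transcription factors of the early steps are described first. Eomes (Tbr2, ENSMUSG00000032446, chromosome 9, 118478212 to 118486132 on the plus strand of GRCm38) encodes a T-box factor of intermediate progenitors. In the 5 3M single-end samples, in replicate order, its level was 1.73, 3.22, 0.389, 2.55 and 2.77 CPM. At 24M it was 1.90, 0.258, 3.11 and 3.12 CPM in replicates 2, 3, 5 and 6 and 0.278 CPM in the mean of replicates 1 and 4. High and low samples occurred at both ages, and the groups overlapped over nearly their whole range. The log2 fold change was -0.33 with a 95% interval of -1.63 to 0.97, and Eomes was not called (edgeR adjusted p = 0.764). In the paired-end experiment the 3M samples stood at 0.934, 4.97 and 2.16 CPM and the 29M samples at 0.589, 0.190 and 0.727 CPM. All 29M samples lay below all 3M samples, but the lowest 3M and the highest 29M sample were close. The mean went from 2.69 ± 2.07 to 0.502 ± 0.279 CPM (SD, n = 3 and 3), and Eomes fell by 2.41 on the log2 scale (SE 0.59, edgeR adjusted p = 0.0438). This call rested on few counts, 2 to 76 per library, and was kept in 5 of the 12 alternative settings that gave a value. Without 3M paired-end replicate 2 the log2 fold change was -1.53 (edgeR adjusted p = 0.144). The call was also lost when 3M paired-end replicate 3 or any of the 29M replicates was left out. GENCODE places an antisense gene, Gm33460, over exon bases of Eomes, and without strand in the libraries its reads cannot be told apart from those of Eomes.

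Insm1 (ENSMUSG00000068154, chromosome 2, 146221921 to 146225020, plus strand) encodes a zinc finger factor that acts in intermediate progenitors. It stood at 8.87, 8.88, 9.995, 11.01 and 9.44 CPM in the 3M single-end samples. The 24M samples, in the order given for Eomes, had 6.98, 7.06, 7.07, 8.06 and 7.37 CPM. Every 24M sample lay below every 3M sample and the spread was narrow. The means were 9.64 ± 0.895 and 7.31 ± 0.447 CPM (SD, n = 5 and 5), a log2 fold change of -0.41 (SE 0.09, edgeR adjusted p = 0.0245), which is under the fold threshold, and Insm1 was not called. Leaving out 3M single-end replicate 4 gave a log2 fold change of -0.35 (edgeR adjusted p = 0.0508). In the paired-end experiment it had 4.84, 5.24 and 4.68 CPM at 3M and 5.13, 5.99 and 6.47 CPM at 29M, so the groups overlapped and the sign was the opposite. The log2 fold change there was 0.25 with a 95% interval of -0.07 to 0.57 (edgeR adjusted p = 0.423). The 3M level itself differed between the experiments, with 9.64 CPM in single-end and 4.92 CPM in paired-end libraries, which were normalised separately.

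Neurod1 (ENSMUSG00000034701, chromosome 2, 79452521 to 79456751, minus strand) encodes a basic helix-loop-helix factor that drives neuronal differentiation and stays on in granule cells. In the 3M single-end samples it had 16.7, 18.1, 17.4, 15.998 and 18.9 CPM. The 24M samples had 25.9, 25.9, 18.4, 19.7 and 24.1 CPM. All but replicate 5 of the 24M samples lay above all 3M samples, the direction opposite to Insm1. The means were 17.4 ± 1.15 and 22.8 ± 3.56 CPM (SD, n = 5 and 5) and the log2 fold change 0.39 (SE 0.10, edgeR adjusted p = 0.0398), under the fold threshold. Without 3M single-end replicate 4 it was 0.36 (edgeR adjusted p = 0.0807). At 29M it had 21.95, 19.8 and 19.6 CPM against 22.9, 20.5 and 22.7 CPM at 3M. These groups overlapped, with a log2 fold change of -0.11 (95% interval -0.28 to 0.06, edgeR adjusted p = 0.535). Exons of Neurod1 share bases with Cerkl on the same strand and with Gm26755 on the other, so that reads in those bases are uncertain.

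Sox4 and Sox11 encode SoxC factors, which switch on genes of the immature neuron. Sox4 (ENSMUSG00000076431, chromosome 13, 28948919 to 28953713, minus strand) had 14.7, 14.3, 16.99, 15.5 and 14.9 CPM in the 3M single-end samples. At 24M it had 10.2, 7.22, 9.78, 9.89 and 6.40 CPM. The groups were far apart, with a gap between the highest 24M and the lowest 3M sample larger than the range over the 3M samples. On average it went from 15.3 ± 1.03 to 8.71 ± 1.77 CPM (SD, n = 5 and 5), and Sox4 fell by 0.82 on the log2 scale (SE 0.12, edgeR adjusted p = 0.00359). It was called in each of the 20 alternative settings, with -0.82 without 3M single-end replicate 4. At 29M it had 7.07, 9.70 and 10.1 CPM against 11.7, 11.1 and 10.1 CPM at 3M. Here the groups overlapped at their edge, and the log2 fold change of -0.29 (95% interval -0.58 to -0.0029) was not called (edgeR adjusted p = 0.283).

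Sox11 (ENSMUSG00000063632, chromosome 12, 27334264 to 27342574, minus strand) had 4.14, 5.09, 5.97, 5.55 and 4.10 CPM in the 3M single-end samples. The 24M samples had 3.34, 3.09, 3.00, 3.76 and 2.09 CPM, each below all 3M samples. The mean level changed from 4.97 ± 0.837 to 3.06 ± 0.618 CPM (SD, n = 5 and 5), and Sox11 fell by 0.72 on the log2 scale (SE 0.16, edgeR adjusted p = 0.0270). Its call was lost in 6 of 20 alternative settings, among them without 3M single-end replicate 4 (log2 fold change -0.68, edgeR adjusted p = 0.0552). In the paired-end samples Sox11 had 4.41, 5.10 and 3.15 CPM at 3M and 2.86, 3.52 and 2.76 CPM at 29M. A single 29M sample lay above the lowest 3M sample. The log2 fold change was -0.50 with a 95% interval of -0.96 to -0.05 and was not called (edgeR adjusted p = 0.241).

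Dcx (doublecortin, ENSMUSG00000031285, chromosome X, 143855842 to 143933311, minus strand) encodes a microtubule-associated protein of migrating neuroblasts and immature neurons and is the most used marker of adult neurogenesis. Its level was 21.2, 29.1, 21.8, 29.6 and 30.2 CPM in the 3M single-end samples. At 24M it was 17.7, 19.4, 17.1, 19.5 and 17.2 CPM. The 3M samples fell into a lower pair and 3 higher samples, and even the lower pair stood above all 24M samples. Its mean moved from 26.4 ± 4.46 to 18.2 ± 1.18 CPM (SD, n = 5 and 5), and Dcx fell by 0.54 on the log2 scale (SE 0.11, edgeR adjusted p = 0.0175), so that its level decreased by 31.0%. Without 3M single-end replicate 4, the library with the high striatum sum, the log2 fold change was -0.49 (edgeR adjusted p = 0.0373), just under the fold threshold. The call was also lost with 3M single-end replicate 5 or 24M replicate 2 left out, and with 24M replicates 1 and 4 both left out. Without 3M replicate 4 or 5 it was the fold threshold that was missed, and in the other fits the adjusted p. Over all fits that left out 1 library, its log2 fold change ran from -0.60 to -0.49. In the paired-end experiment Dcx had 20.2, 23.9 and 21.5 CPM at 3M and 17.5, 16.6 and 17.4 CPM at 29M. The groups did not overlap. The log2 fold change of -0.35 (SE 0.08, edgeR adjusted p = 0.0368) was under the fold threshold, so Dcx was not called at 29M.

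Igfbpl1 and Draxin encode secreted proteins of the newborn neuron and showed the largest changes among the members at 24M. Igfbpl1 (ENSMUSG00000035551, chromosome 4, 45809468 to 45826923, minus strand) encodes a protein related to the binding proteins of insulin-like growth factors. It had 4.91, 5.09, 2.93, 6.83 and 6.67 CPM in the 3M single-end samples and 0.683, 0.722, 1.81, 1.94 and 1.25 CPM at 24M. All 24M samples lay below the lowest 3M sample, replicate 3. The mean went from 5.29 ± 1.58 to 1.28 ± 0.587 CPM (SD, n = 5 and 5), and Igfbpl1 fell by 2.07 on the log2 scale (SE 0.30, edgeR adjusted p = 0.00304). Its level thus decreased by 76.2%. The paired-end samples had 2.89, 6.48 and 4.05 CPM at 3M and 0.673, 1.05 and 0.363 CPM at 29M, again without overlap. On average it went from 4.47 ± 1.83 to 0.694 ± 0.342 CPM (SD, n = 3 and 3), and Igfbpl1 fell by 2.76 on the log2 scale (SE 0.39, edgeR adjusted p = 0.00181). Its level thus decreased by 85.3%. It was the 1 member called at both ages, and it was called in each of the 20 alternative settings at 24M and each of the 13 at 29M. Without 3M single-end replicate 4 its log2 fold change at 24M was -1.96.

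Draxin (ENSMUSG00000029005, chromosome 4, 148098437 to 148130698, minus strand) encodes a repulsive axon guidance protein. It had 2.05, 2.13, 1.52, 1.22 and 1.88 CPM in the 3M single-end samples and 0.379, 0.361, 0.339, 0.215 and 0.556 CPM at 24M. The highest 24M sample was well below the lowest 3M sample, although the counts behind these values were only 2 to 45 per sample. The mean level changed from 1.76 ± 0.381 to 0.370 ± 0.122 CPM (SD, n = 5 and 5), and Draxin fell by 2.19 on the log2 scale (SE 0.26, edgeR adjusted p = 0.000524). Its level thus decreased by 78.2%. It was called in each of the 20 alternative settings, with -2.29 without 3M single-end replicate 4. In the paired-end experiment it had 1.19, 0.720 and 1.62 CPM at 3M and 0.336, 0.380 and 0.654 CPM at 29M. The groups did not overlap, but with 4 to 18 counts per library Draxin did not pass the filter. With no filter the log2 fold change was -1.27 (SE 0.44, edgeR adjusted p = 0.0724), which was not called.

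Calb2 (calretinin, ENSMUSG00000003657, chromosome 8, 110137502 to 110168210, minus strand) encodes a calcium-binding protein of immature granule cells that is also made by interneurons and mossy cells. It had 40.4, 61.6, 47.9, 36.8 and 30.3 CPM in the 3M single-end samples and 46.2, 28.2, 55.5, 62.9 and 39.5 CPM at 24M. The groups overlapped over nearly their whole range, and the log2 fold change was 0.09 with a 95% interval of -0.36 to 0.53 (edgeR adjusted p = 0.825). At 29M the samples were close together at 31.5, 33.5 and 34.95 CPM, against 34.0, 59.8 and 42.1 CPM at 3M, and the groups overlapped at their edge. The log2 fold change of -0.45 (95% interval -0.78 to -0.13) was not called (edgeR adjusted p = 0.132). A list of 10 interneuron genes had 0 genes called at either age, with medians of -0.03 and -0.04 on the log2 scale. At each age 6 of them lay below 0 and 4 above. Slc32a1 had -0.38 at 24M (edgeR adjusted p = 0.0367), under the fold threshold, and -0.13 at 29M (edgeR adjusted p = 0.389). Reln had -0.33 at 24M (edgeR adjusted p = 0.0608) and -0.23 at 29M (edgeR adjusted p = 0.0426), under the fold threshold.

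Tac2 (ENSMUSG00000025400, chromosome 10, 127724478 to 127731768, plus strand) encodes the precursor of the peptide neurokinin B. Its level was 3.96, 5.66, 4.91, 6.47 and 3.26 CPM in the 3M single-end samples and 3.57, 2.58, 3.28, 2.47 and 3.20 CPM at 24M. The groups overlapped because 3M replicate 5 was as low as the higher 24M samples. The log2 fold change was -0.68 (SE 0.19) and missed the threshold (edgeR adjusted p = 0.0515), although 7 of 20 alternative settings called it, DESeq2 and the fit without 3M replicate 5 among them. Without 3M single-end replicate 4, which held its highest 3M value, the log2 fold change was -0.55 (edgeR adjusted p = 0.0977). In the paired-end samples Tac2 had 3.65, 4.52 and 2.88 CPM at 3M and 3.87, 4.38 and 2.83 CPM at 29M. These groups covered the same range, and the log2 fold change was -0.04 with a 95% interval of -0.51 to 0.43 (edgeR adjusted p = 0.953).

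**Figure D2:**
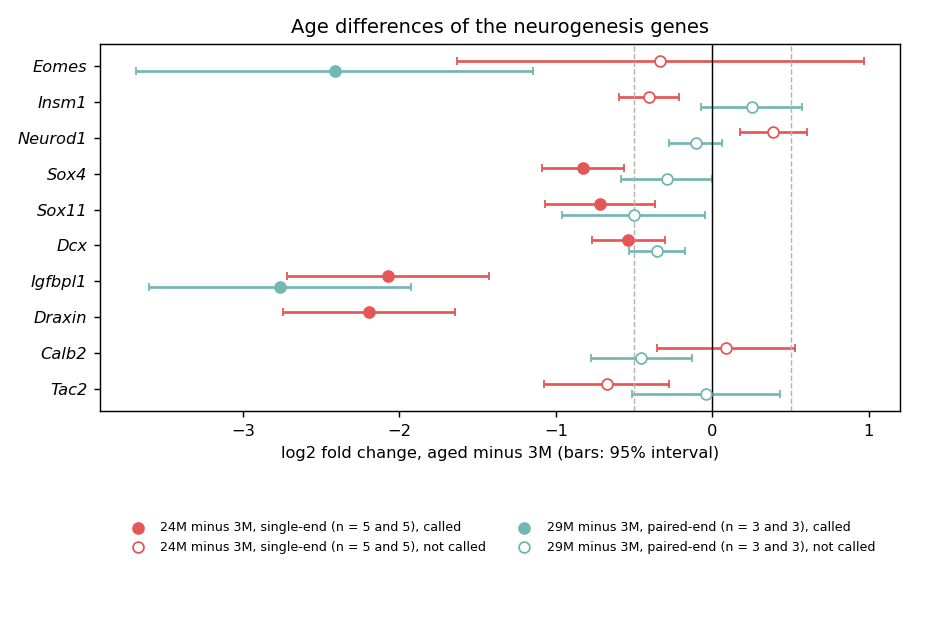
Log2 fold change of each neurogenesis gene, aged minus 3M (horizontal axis), with its 95% interval, for 24M in red and 29M in green; filled points were called, open points were not, and dashed lines mark the fold threshold of 0.5. Draxin was not tested at 29M. Igfbpl1 lies near -2.07 and -2.76, and the Eomes interval at 24M runs from -1.63 to 0.97.

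To ask whether the members responded differently at the later age, the 29M effect minus the 24M effect was tested in 1 fit of all 4 groups. Of 16055 genes tested, 0% passed an adjusted p of 0.05, and 0 of the 10 members did, by edgeR or by DESeq2. An unadjusted p under 0.05 was reached by 3 of the 10 members and by 1674 of all genes. The 3 members were Insm1, with a difference of 0.65 on the log2 scale (unadjusted p = 0.00051, edgeR adjusted p = 0.392), Neurod1, with -0.50 (unadjusted p = 0.0035, edgeR adjusted p = 0.392), and Sox4, with 0.53 (unadjusted p = 0.0187, edgeR adjusted p = 0.401). For Eomes, called at 29M and not at 24M, the difference of -2.07 had a 95% interval of -4.47 to 0.33 (edgeR adjusted p = 0.533). For Igfbpl1 it was -0.68 with an interval of -1.96 to 0.60, and for Dcx 0.18 with an interval of -0.16 to 0.52. The intervals are wide, and a p that misses the threshold does not show that the ages were alike. Single-end reads were used throughout for the 24M and paired-end reads for the 29M comparison, so age and library type cannot be told apart.

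The log2 level of each member relative to the 3M mean of the same library type shows how the samples vary. The median over the 10 members was -0.47, -0.68, -0.53, -0.38 and -0.83 in the 24M samples, the last being the mean of replicates 1 and 4. In the 29M samples it was -0.47, -0.30 and -0.32. The 3M samples lay between -0.07 and 0.20. The aged samples thus stood below the 3M samples in each experiment, as a description of the chosen members. Between 7 and 9 of the 10 members were below the 3M mean in each aged sample. In 3M single-end replicate 1, 9 of 10 members were also below that mean, though by less, with a median of -0.07.

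**Figure D3:**
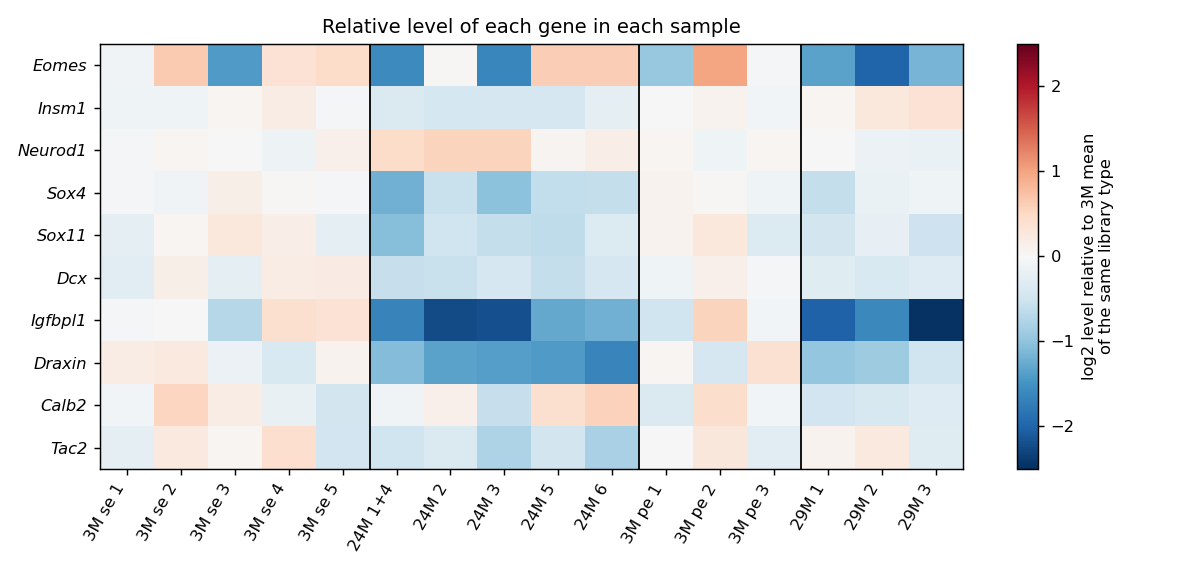
Log2 level of each neurogenesis gene (rows) in each sample (columns; se, single-end; pe, paired-end) relative to the 3M mean of the same library type, with blue below and red above that mean. Igfbpl1 is blue in all 8 aged samples, while Eomes changes from sample to sample within both the 3M and the 24M group.

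Per kilobase of exon, the members ranged widely at 3M. Calb2 was the highest in single-end libraries at 24.9 CPM per kilobase, then Neurod1 at 6.39. Tac2, Sox4 and Insm1 followed at 3.52, 3.19 and 3.11 CPM per kilobase and did not differ beyond their spread. Dcx at 2.09 (SD 0.352) and Igfbpl1 at 1.63 CPM per kilobase (SD 0.487) had spreads that overlapped. Sox11, Eomes and Draxin were the lowest at 0.598, 0.513 and 0.338. At 24M the levels of Igfbpl1 and Draxin were 0.394 and 0.0712 CPM per kilobase. The order at 3M in paired-end libraries began with the same 4 genes, Calb2 at 25.998, Neurod1 at 8.09, Tac2 at 2.67 and Sox4 at 2.29 CPM per kilobase.

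Eomes varied widely between samples within the 3M and 24M groups. The genes nearest to it, by the root mean square difference of relative log2 levels over the 16 samples among 14238 genes, were Samd3 (0.49), Ebf2 (0.50), Ebf3 (0.51), Ctxn3 (0.56) and Zic1 (0.66); this comparison was chosen after the values of Eomes had been seen. Ebf3, a transcription factor known from Cajal-Retzius cells, had 7.33 CPM in 3M paired-end replicate 2, where Eomes was at 4.97. It had 1.27 CPM in 3M single-end replicate 3 and 1.19 CPM in 24M replicate 3, where Eomes was at 0.389 and 0.258. In 24M replicates 5 and 6, where Eomes stood above 3 CPM, Ebf3 had 5.37 and 5.48 CPM. The match was not complete, since Ebf3 had 2.94 and 2.54 CPM in 29M replicates 1 and 3 and 1.87 CPM in 3M paired-end replicate 1, while Eomes was higher in the last, and likeness in such a list follows from how the genes were picked. None of these 5 genes was called at either age, and at 29M their log2 fold changes ran from -1.52 for Samd3 to -0.83 for Ctxn3. A list of 5 Cajal-Retzius cell genes that holds Ebf3 summed to 31.2 to 42.2 CPM in the 3M paired-end samples, highest in replicate 2, and to 25.1 to 26.8 CPM at 29M. Of the 3 tested genes 0 were called, but 3 of 3 lay below 0 with a median of -0.45 on the log2 scale. That was the value of Ndnf, a secreted neurotrophic factor, which missed the fold threshold alone (edgeR adjusted p = 0.00474). T and NK cells, which also use Eomes, had their 12 list genes at sums of 0.424 to 1.44 CPM at 3M and 2.19 to 3.03 CPM at 29M, and 0 of them passed the filter on low counts. That sum was higher at 29M, where Eomes was lower, and 3 of the 12 genes were at 0 in every 3M paired-end sample and 1 in every 29M sample. In the single-end experiment the sums were 1.02 to 1.61 CPM at 3M and 1.07 to 2.90 CPM at 24M, and those of the Cajal-Retzius list 28.1 to 39.6 and 24.7 to 34.4 CPM, with 0 of 4 tested genes called, 3 of 4 below 0 and a median of -0.15. The part of other cells in the Eomes values was not tested.

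**Figure D4:**
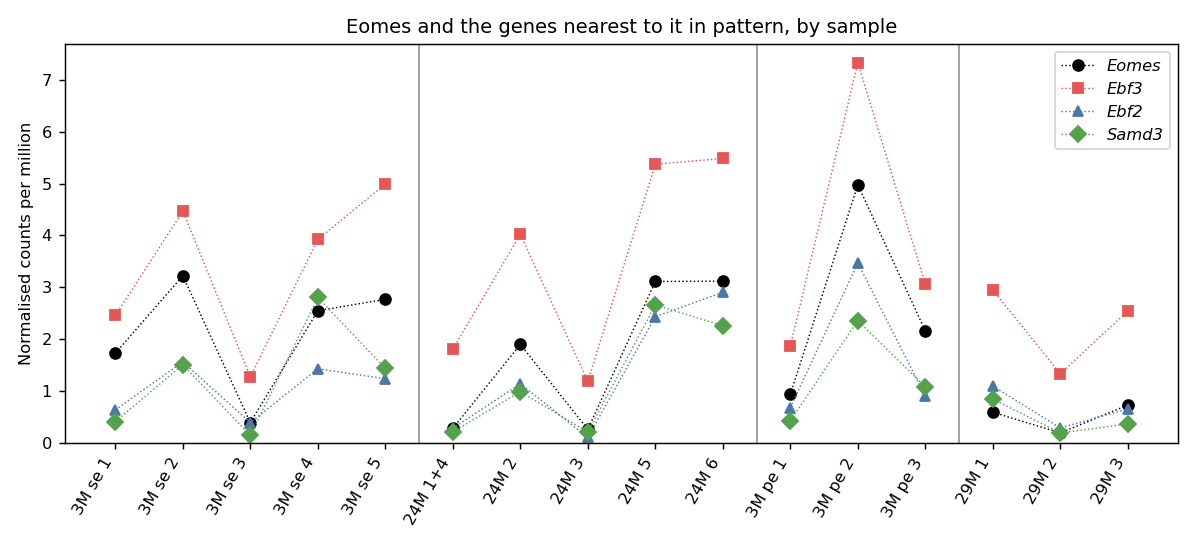
Normalised CPM (vertical axis) of Eomes, Ebf3, Ebf2 and Samd3 in each of the 16 samples (horizontal axis; vertical lines part the groups; dotted lines join samples of a group for the eye only). The 4 genes are high together in 3M paired-end replicate 2 and low together in 3M single-end replicate 3 and in 24M replicate 3.

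Dcx had nearer neighbours, but its counts were higher than those of Eomes, so the sizes of these differences cannot be compared directly. The 5 genes outside the members with the smallest difference from its relative log2 levels were Kcnh5 (0.12), Sfmbt2 (0.13), Gfra2 (0.13), Cdhr1 (0.15) and Ptchd1 (0.16), over the same 16 samples and 14238 genes. Among the members Sox11 was nearest to Dcx at 0.25, farther than these 5 genes, and Igfbpl1 stood at 1.06.

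Other genes of the lineage were read from 4 lists, from stem cell to mature granule cell. Of 53 such genes tested at 24M, 5 were called lower and 1 higher, and of 52 tested at 29M, 1 lower and 1 higher. Over all genes tested, 100 of 15683 were called lower and 210 higher at 24M. At 29M, 17 of 15097 were called lower and 202 higher. Among 15 neural stem cell genes the medians were -0.08 at 24M and 0.02 at 29M on the log2 scale, near those of all genes. Fabp7, a fatty acid-binding protein of radial glia and astrocytes, fell by 0.59 at 24M (edgeR adjusted p = 0.0192) and had -0.49 at 29M, just under the fold threshold (edgeR adjusted p = 0.00488). Thbs4, a secreted thrombospondin, fell by 0.81 at 24M (edgeR adjusted p = 0.0106) and had 0.04 at 29M (edgeR adjusted p = 0.906). Its level was 42.6 CPM in 3M single-end replicate 4 and 22.8 to 27.9 CPM in the other 3M single-end samples, and without that library its log2 fold change was -0.63 (edgeR adjusted p = 0.00145). Fabp7 had -0.70 without it and Vim 0.61, and both stayed called. Prom1, a membrane protein of stem cells, fell by 0.53 at 29M (edgeR adjusted p = 0.0103) and was not called when 3M paired-end replicate 2 or 29M replicate 1 was left out. Vim, the intermediate filament protein vimentin that astrocytes and vessels also make, rose at both ages, by 0.61 (edgeR adjusted p = 0.000153) and 0.75 on the log2 scale.

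Of the cycling progenitor genes 10 were tested at 24M and 9 at 29M, with medians of -0.13 and -0.19. Top2a, the topoisomerase of dividing cells, fell by 0.82 at 24M (edgeR adjusted p = 0.0434) and had -1.14 at 29M, which was not called (edgeR adjusted p = 0.0734). Its 24M call was lost in 7 of the 11 fits that left out 1 library, the one without 3M single-end replicate 4 among them (-0.80, edgeR adjusted p = 0.0784). Mki67, which encodes the Ki-67 antigen, had -0.20 and -0.21 and was not called. Ccnd2, a cyclin of neural progenitors that mature neurons also express, had -0.26 at 29M (edgeR adjusted p = 0.0138), under the fold threshold. Among 17 further immature neuron genes the medians were -0.22 and -0.20, with 14 of 17 below 0 at 24M and 17 of 17 at 29M. Mex3a, an RNA-binding protein, fell by 0.69 at 24M (edgeR adjusted p = 0.0110), and Dpysl5, a collapsin response mediator protein, by 0.52 (edgeR adjusted p = 0.0225). Without 3M single-end replicate 4 they had -0.72 and -0.56 and stayed called, but Dpysl5 was not called in 4 of the 11 fits that left out 1 library. At 29M 0 of the 17 were called, and the smallest p was that of Dpysl3, of the same protein family, with -0.44 (edgeR adjusted p = 0.000452), under the fold threshold. Among 11 mature granule cell genes 0 were called at either age, with medians of 0.16 and 0.02. The smallest p there belonged to Il16 at 24M, with 0.22 (edgeR adjusted p = 0.0575), and to Plk5 at 29M, with 0.34 (edgeR adjusted p = 0.0754).

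**Figure D5:**
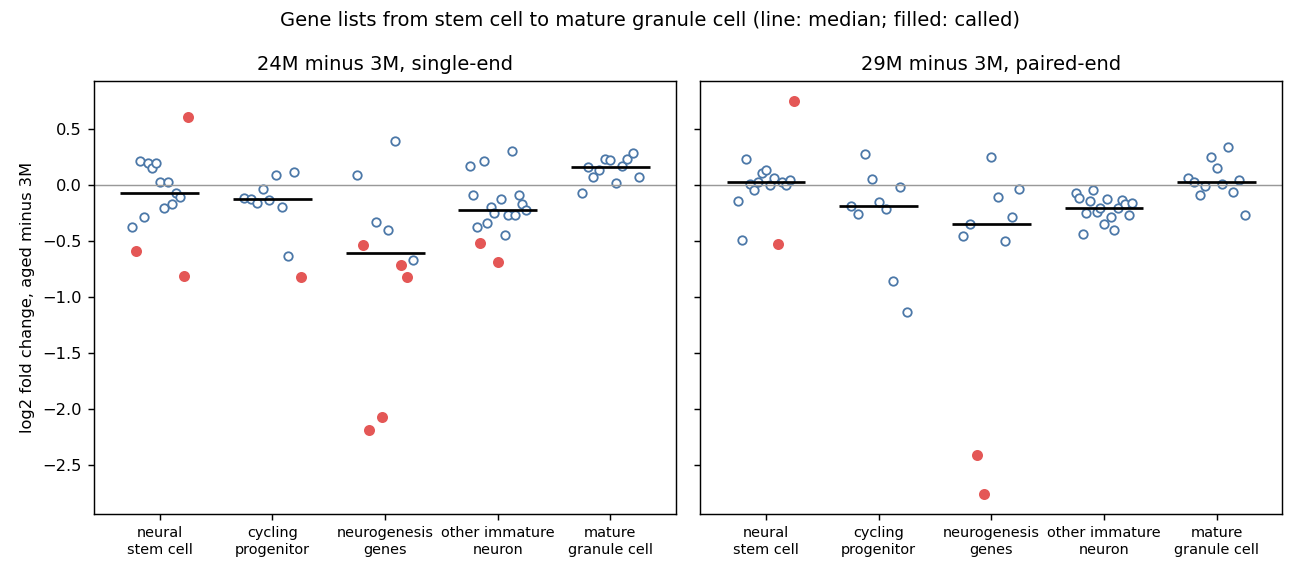
Log2 fold change, aged minus 3M (vertical axis), of each tested gene in 5 lists ordered from stem cell to mature granule cell (horizontal axis), at 24M on the left and 29M on the right; lines are list medians and filled points are called genes. The median of the neurogenesis genes is -0.61 and -0.35, and that of the mature granule cell genes 0.16 and 0.02.

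Genes of other cells and regions that a dissected hippocampus can hold were read in the same way. A list of 7 genes of subventricular neuroblasts, which also express Dcx, summed to 77.1 to 99.2 CPM in the 3M single-end samples, highest in replicate 4, and to 67.9 to 78.5 CPM at 24M. Of these 7 genes 0 were called, but 7 of 7 lay below 0 with a median log2 fold change of -0.27, beside -0.22 for the immature neuron genes. Dlx1 had -0.27 (edgeR adjusted p = 0.0326), under the fold threshold. In the paired-end experiment the sums were 70.1 to 86.7 and 62.7 to 73.8 CPM, with 0 called, 6 of 7 below 0 and a median of -0.26. Of 10 oligodendrocyte precursor genes 1 was called at each age, Gpr17, a receptor of precursors on the way to myelin, which fell by 0.997 (edgeR adjusted p = 0.000109) and 0.95 (edgeR adjusted p = 2.79e-05). The list summed to 481 to 517 CPM at 3M and 426 to 486 CPM at 24M, and to 466 to 480 and 416 to 444 CPM in the paired-end experiment. Of the striatum list, highest at 3M in single-end replicate 4, 0 of 11 tested genes were called at 24M. All 11 lay below 0 there, with a median of -0.63, beside -0.61 for the members. At 29M its median was -0.03, with 7 genes below 0 and 4 above. Lists of thalamus and habenula, hypothalamus and choroid plexus genes had 0 genes called at either age. The choroid plexus genes summed to between 2037 and 8439 CPM over the 3M single-end samples and to between 4646 and 7794 CPM at 24M. The part of these cells in the members' values was not tested.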

How the data were processed

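Whole hippocampi were sequenced with an unstranded kit (TruSeq RNA Sample Prep Kit v2). The authors aligned the reads with STAR 2.3.0 to GRCm38.p2 (submitters' processing notes), took reads per gene from HTSeq and deposited these raw counts, without normalization. The sources used here do not name the annotation counted. Lines without a gene name held 23.9% to 40.3% of the reads of a library, most of them not unique or without a feature, and stayed out of totals and tests. The labels do not tie libraries to single mice, so p-values measure only the spread between these samples, which may be technical.

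In 136 pairs of libraries, the squared difference per gene was divided by its binomial variance over genes with 20 to 99 counts. 24M replicates 1 and 4 gave a mean of 0.406 and the next lowest pair 1.23, so their rounded mean was used as 1 sample. Of 38355 identifiers, 36602 were named from GENCODE M21.

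Counts were tested with edgeR 4.0.16 (TMM, default filter, quasi-likelihood) in R 4.3.3 over all genes, each aged group against the 3M group of its own experiment. SE was computed as the size of the log2 fold change over the square root of F. DESeq2 1.42.0 was an alternative, with others on size factors, filters, the 24M pair, the replicate number as a block, thinning and left-out libraries. Leaving out 24M replicate 1 or 4 put the other of the pair in place of their mean. The 24M group lost no sample in those fits, so they are weak checks. Relative levels are log2 of CPM plus 0.5. On simulated data, 199 of 200 changed genes were recovered at 24M with 3 false calls, and 200 of 200 at 29M with 7. The changed genes were drawn from genes of higher expression and changed by at least 1 on the log2 scale. Recovery of smaller changes and of the rarest members was not tested. All members are reported. Of each related list the text names the called genes or, with none called, the gene of smallest p, and of the other lists the genes called. Mki67, Dlx1, Ndnf, Slc32a1, Reln and the genes nearest Eomes were named after their values were seen. The result of 1 gene outside the members is not reported here. The members and lists were chosen with earlier results of these data known. Depth limits genes under 1 CPM.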

Additional observations from a re-analysis of the deposited data

Results flagged for a closer look

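In 48 groups of 5 values (the members and list sums in the 3M single-end and 24M samples), the sample farthest out was set against the range of its group, with a critical value of 0.71 for 5 samples. Of these, 4 stood apart where chance gives about 2.4. The summed striatum list in 3M single-end replicate 4 had a gap of 0.857 of the range, and leaving this library out ended the calls of Dcx and Sox11 at 24M. In 3M single-end replicate 2, the T and NK cell list had a gap of 0.724. The mature granule cell list had a gap of 0.729 in 24M replicate 3, where it was highest. For the thalamus and habenula list the gap was 0.780 in 24M replicate 6. No member had a sample that stood apart by this measure.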

How the results depend on the processing

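The number of members called lower at 24M was 5, and 3 to 6 with each library left out, the lowest being for 3M single-end replicate 4 and for 24M replicate 2. With 24M replicates 1 and 4 both left out it was 3. At 29M it was 2, and 1 to 3 with each library left out, with 3, Calb2 added, when 3M paired-end replicate 1 was out and 1 when any other was. With the stricter filter (at least 1 CPM), with all 4 groups in 1 fit, and with libraries thinned to the smallest total it was 1. The 29M effect differed from the 24M effect for 0 members under all alternatives run. For the related genes, the 5 called lower at 24M became 3 with 24M replicates 1 and 4 both left out, 3 when thinned, and 2 to 5 with each library left out (2 without 24M replicate 2, 3 when 24M replicate 3 or 3M single-end replicate 1 was out, and 4 when 3M single-end replicate 4 was). The 1 called lower at 29M became 8 without the fold threshold, 0 with all 4 groups in 1 fit, 0 when thinned, and 1 to 2 with each library left out (2 without 3M paired-end replicate 1). The cause of these changes was not tested, apart from the stricter filter, which removes Eomes at 29M.

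The sign turned for Calb2 at 24M, from a log2 fold change of 0.09 to -0.052 with the replicate block. With a library left out it ran from -0.037 (24M replicate 6 out; -0.026 with 3M single-end replicate 5 out) to 0.24. For Tac2 at 29M it turned from -0.04 to 0.0042 with the replicate block, and with a library left out it ran from -0.17 to 0.16 (3M paired-end replicate 2 out; 0.14 with 29M replicate 3 out). Neither gene was called in these fits. Of the other values of single members, 535 kept direction and call, 17 lost a call and 8 gained one.

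The correlation of same-numbered samples ran from -0.17 to 0.05 in the single-end experiment and from -0.07 to 0.10 in the paired-end experiment, so the numbers are taken only as names. The replicate block fit also kept 24M replicates 1 and 4 apart. With it, the members called lower numbered 5 at 24M and 2 at 29M, and the related genes 4 and 2. Below about 1 CPM (Draxin, Eomes and Igfbpl1 in aged samples), depth limits precision.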
